A study of Rattus norvegicus with 16 samples.

Results

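The genes described here code for the voltage-gated sodium channels, the voltage-gated calcium channels and the hyperpolarization-activated HCN channels, with their accessory subunits. A gene was taken as a member when its symbol in the deposited tables began with Scn and a digit, with Cacn, or with Hcn and a digit. Where several rows carried the same symbol, the row with the highest mean stood for the gene. In all, 43 of the 16638 gene symbols in the tables were members, 43 of 16405 in the hippocampal table and 41 of 16395 in the blood table. They comprised 10 sodium channel pore (alpha) subunits, 4 sodium channel beta subunits, 10 calcium channel pore subunits, 15 calcium channel accessory subunits and 4 HCN subunits. The remaining members stood in the blood table only in a row that names several genes.

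Sodium channels open almost at once on depolarization and carry the upstroke of the action potential, while their beta subunits adjust gating and attach the channels to adhesion proteins and the cytoskeleton. Calcium channels turn voltage into a calcium signal: the P/Q- and N-type channels trigger transmitter release, the L-type channels couple activity to gene expression, and the T-type channels open near rest and shape bursts. HCN channels open on hyperpolarization, carry the h-current and, in the apical dendrites of CA1 pyramidal neurons, damp the summation of synaptic input.

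The study measured RNA in the CA1 field of the hippocampus, the last excitatory relay of the hippocampal circuit, and in white blood cells (WBC). Male Sprague-Dawley rats of 200 to 240 g received a fluid percussion injury, a model of traumatic brain injury (TBI) in which a pressure pulse deforms the brain, or sham surgery. All rats were tested for learning 1 week after surgery and then killed. The 16 poly-A libraries fell into 4 groups of 4, namely CA1 TBI, CA1 sham, WBC TBI and WBC sham, and nothing in the labels says that equal numbers mark the same rat, so libraries were not paired and each p-value reflects nothing beyond the scatter among these libraries, which may be technical.

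Levels were deposited as FPKM, fragments scaled by transcript length and by the mapped fragments of the library, which can be compared between genes but keeps no counts, so the depth behind each value is unknown. The tissue labels held against markers. The 8 pyramidal neuron markers summed to 2396–2679 FPKM in TBI and 2329–3201 FPKM in sham CA1, against 6.95–13.1 FPKM in TBI and 5.32–9.90 FPKM in sham WBC. The leukocyte markers, of which 10 of 11 were in each table, summed to 1928–3229 FPKM in TBI and 2558–2959 FPKM in sham WBC. Both tissues are mixtures, in which fewer cells of a type and less RNA per cell cannot be told apart.

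In CA1 32 of the 43 members averaged at least 1 FPKM over the 8 libraries, and no member passed the test between TBI and sham. Of these 32, 30 could be tested, because Cacna1e and Cacna1i had values that the authors' software marked as failed. Of the 30, 10 were higher and 20 lower in TBI on the log2(FPKM + 0.5) scale, and 0 had an adjusted p under 0.05 (limma, Benjamini-Hochberg over all rows), against 0.00683% of the 14637 rows tested. Likewise 0 of 30 had an unadjusted p under 0.05, against 5.14% of all rows, and 0 had TBI and sham libraries that did not overlap, against 2.88% of all rows. With sample weights 7 of 30 (23.3%) had an unadjusted p under 0.05, all lower in TBI, against 13.8% of all rows, and none passed the adjusted test. The share lower in TBI was 66.7%, against 53.3% of all rows. Under median-ratio scaling 19 of 30 were lower, against 50.6% of all rows, and under quantile normalization 20 of 30, against 53.1%. This share depended on single libraries. Without TBI 4 it fell to 16 of 30 (53.3%, against 53.3% of all rows), and without sham 3 to 17 of 30 (56.7%, against 53.0%). Without TBI 2 or without sham 1 it was 21 of 30 (70%, against 53.6% and 55.3%). The median difference was -0.030, against -0.009 over all rows. The log2 differences ran from -0.29 to 0.28, and the adjusted p-values from 0.891 to 0.999.

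**Figure D1:**
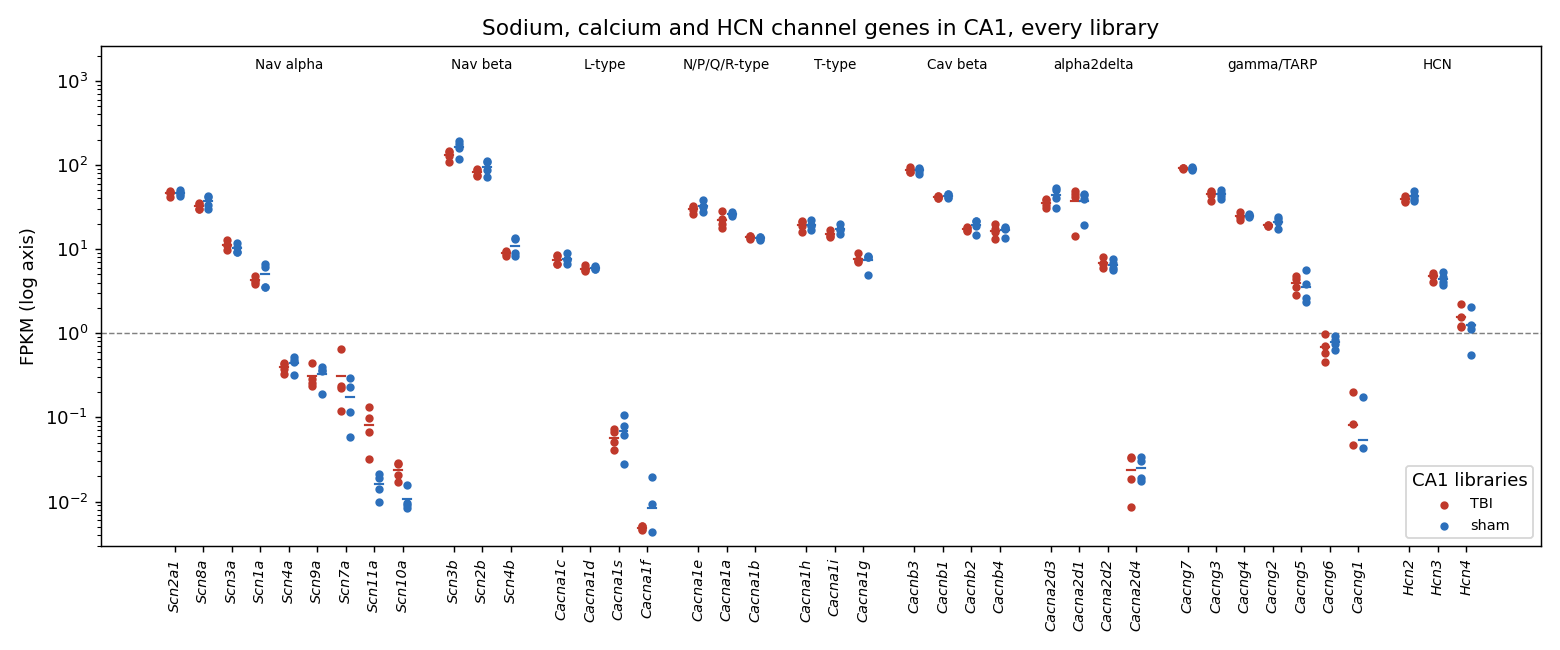
FPKM on a log axis for 40 of the 43 members in CA1, grouped by subfamily and ordered by level, with red points for the 4 TBI and blue points for the 4 sham libraries and short bars for the group means; values of 0 cannot be drawn. The dashed line marks 1 FPKM, and Scn3b, with a mean of 147 FPKM, is the highest of the members drawn.

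Of the sodium channel pore subunits, 4 averaged above 1 FPKM in CA1. Scn2a1, an alpha subunit of the axons of principal neurons, was the highest, with 46.5, 47.9, 49.2 and 42.0 FPKM in TBI libraries 1 to 4, against 44.9, 48.1, 50.2 and 42.4 FPKM in sham libraries 1 to 4. The groups coincided, and the difference was 0.0007 (95% interval -0.16 to 0.17, limma adjusted p = 0.999). Scn8a, which codes for the channel that sets the spike threshold at the axon initial segment and fills the nodes of Ranvier, came next, with 34.9, 30.2, 34.2 and 30.2 FPKM in TBI libraries 1 to 4, against 29.9, 42.9, 41.5 and 33.2 FPKM in sham libraries 1 to 4. Sham 2 and sham 3 stood above all 4 TBI libraries and sham 1 stood below them, so the groups overlapped, and the difference was -0.17 (95% interval -0.45 to 0.10, limma adjusted p = 0.891).

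Scn2a1 exceeded Scn8a in 8 of 8 libraries, although their ranges overlapped, and it made up 48.5 ± 0.938% of the summed sodium channel alpha FPKM in TBI and 46.8 ± 2.74% in sham (SD, n = 4 each). Scn8a made up 33.9 ± 1.88% in TBI and 36.9 ± 2.47% in sham. Scn3a, the alpha subunit best known from embryonic brain, had 11.2, 11.1, 12.7 and 9.83 FPKM in TBI libraries 1 to 4, against 10.53, 11.9, 9.16 and 9.15 FPKM in sham libraries 1 to 4. TBI 3 and sham 2 were its highest libraries, the groups overlapped, and it had the smallest p of the members that were higher in TBI, with a difference of 0.13 (95% interval -0.11 to 0.37, limma adjusted p = 0.891). Scn1a, the main alpha subunit of inhibitory interneurons, was the lowest of the 4 subunits above 1 FPKM, with 3.89, 4.80, 4.29 and 4.09 FPKM in TBI and 3.57, 6.17, 6.73 and 3.51 FPKM in sham libraries 1 to 4. Sham 2 and sham 3 were again the highest. The ranges of Scn8a, Scn3a and Scn1a did not overlap one another. The other 6 alpha genes averaged 0.0172 FPKM (Scn10a) to 0.420 FPKM (Scn4a) over the 8 libraries and were not tested. They include the channel of skeletal muscle (Scn4a), a sodium-sensing channel of glia and other cells (Scn7a) and the channels of peripheral sensory neurons (Scn9a, Scn10a and Scn11a).

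All 4 sodium channel beta subunits were lower in TBI without passing the test, with a median difference of -0.22. Scn3b, which binds the alpha subunit noncovalently, had 145, 109, 148 and 128 FPKM in TBI libraries 1 to 4, against 118, 191, 178 and 160 FPKM in sham libraries 1 to 4. Sham 2, sham 3 and sham 4 exceeded every TBI library, whereas sham 1 lay below all of them except TBI 2. The difference of Scn3b was -0.28 (95% interval -0.64 to 0.084, limma adjusted p = 0.891).

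Scn4b, whose cytoplasmic tail can block the open pore and so yield resurgent sodium current, had 9.21, 9.47, 8.72 and 8.27 FPKM in TBI libraries 1 to 4, against 8.94, 13.05, 13.7 and 8.23 FPKM in sham libraries 1 to 4. Here sham 2 and sham 3 stood above the other 6 libraries, which lay between 8.23 and 9.47 FPKM, and the difference was -0.25 (95% interval -0.62 to 0.11, limma adjusted p = 0.891). Scn2b, which is linked to the alpha subunit by a disulfide bond, averaged 81.8 ± 7.73 FPKM in TBI and 94.8 ± 18.8 FPKM in sham (SD, n = 4 each), with sham 2 and sham 3 above all TBI libraries and sham 1 below them. The order Scn3b, Scn2b, Scn4b held in 8 of 8 libraries for each neighbouring pair, and the ranges of Scn3b and Scn2b overlapped. The direction of all 4 differences was the same under median-ratio scaling and quantile normalization, with medians of -0.22 and -0.23.

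Start regions from RefSeq, on build GRCr8, which is not the build of the deposited tables, are printed for 3 members that are well expressed in CA1, because they show how unlike the start regions of such genes can be. Each runs from 250 bases before to 50 after the annotated start, 5′ to 3′ on the gene's strand. Capitals mark CG dinucleotides, the main sites at which cytosine is methylated in mammals. Scn8a lies at chr7:133860977-133861276 on the plus strand, Hcn2 at chr7:10639408-10639707 on the minus strand and Scn2b at chr8:54322133-54322432 on the plus strand.
Scn8a: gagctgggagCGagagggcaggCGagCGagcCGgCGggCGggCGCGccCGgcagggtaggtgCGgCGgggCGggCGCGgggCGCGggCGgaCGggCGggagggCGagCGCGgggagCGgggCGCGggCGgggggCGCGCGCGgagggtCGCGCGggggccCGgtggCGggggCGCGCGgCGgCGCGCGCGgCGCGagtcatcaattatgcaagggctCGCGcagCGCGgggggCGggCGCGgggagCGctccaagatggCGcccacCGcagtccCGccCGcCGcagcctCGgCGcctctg
Hcn2: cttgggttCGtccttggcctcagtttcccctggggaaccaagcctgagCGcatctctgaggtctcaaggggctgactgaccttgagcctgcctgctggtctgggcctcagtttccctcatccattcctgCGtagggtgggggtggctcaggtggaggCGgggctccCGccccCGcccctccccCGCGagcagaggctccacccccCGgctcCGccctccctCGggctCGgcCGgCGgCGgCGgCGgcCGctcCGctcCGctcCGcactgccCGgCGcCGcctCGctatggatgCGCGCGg
Scn2b: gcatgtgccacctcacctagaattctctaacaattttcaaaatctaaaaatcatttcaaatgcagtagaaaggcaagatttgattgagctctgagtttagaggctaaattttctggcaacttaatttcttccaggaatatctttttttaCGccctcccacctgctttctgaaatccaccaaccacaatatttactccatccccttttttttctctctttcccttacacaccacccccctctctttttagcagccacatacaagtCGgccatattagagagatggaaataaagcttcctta
The Scn8a region held 60 CG, and 0.0538% of the 33469 rat start regions of the same length held at least as many. The Hcn2 region held 28, a number reached by 12.7% of them, and the Scn2b region held 2, a number reached by 86.4%. CG reads the same on both strands, and 94.5% of all start regions held at least 1. Only 27 of the 43 members matched a start region (62.8%), too few for a statement about the members as a set.

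Among the calcium channel pores, the P/Q-, N- and R-type genes exceeded the L-type genes. Cacna1e, the R-type pore, averaged 31.3 FPKM over the 8 libraries and was not tested, as 1 of its 8 values was marked as failed. Cacna1a, the P/Q-type pore of most central presynaptic terminals, had 28.6, 17.9, 22.8 and 20.05 FPKM in TBI libraries 1 to 4, against 26.0, 27.5, 26.5 and 24.6 FPKM in sham libraries 1 to 4. TBI 2, TBI 3 and TBI 4 lay below every sham library and TBI 1 above every sham library. It had the smallest p of all 30 members, with a difference of -0.24 (95% interval -0.54 to 0.05, unadjusted p = 0.0923, limma adjusted p = 0.891). Without TBI 1 the difference was -0.37 (limma unadjusted p = 0.00323, adjusted p = 0.556), in a fit where 7.25% of all rows had an unadjusted p under 0.05, and without TBI 2 it was -0.15 (limma adjusted p = 0.984). Cacna1b, the N-type pore, had 14.3, 13.6, 14.3 and 13.1 FPKM in TBI libraries 1 to 4, against 12.7, 13.98, 14.03 and 13.3 FPKM in sham libraries 1 to 4. These groups overlapped throughout, and the difference was 0.035 (95% interval -0.093 to 0.16, limma adjusted p = 0.933).

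Both L-type pores of neurons were present. Cacna1c, the dominant one in hippocampus and heart, had 8.51, 6.60, 8.18 and 6.68 FPKM in TBI libraries 1 to 4, against 6.60, 8.87, 7.45 and 7.59 FPKM in sham libraries 1 to 4, and the groups were intermingled, with a difference of -0.025 (95% interval -0.28 to 0.23, limma adjusted p = 0.979). Cacna1d, which opens at more negative voltages, lay between 5.43 and 6.44 FPKM in TBI and between 5.74 and 6.34 FPKM in sham. Cacna1s of skeletal muscle and Cacna1f of the retina averaged 0.0634 and 0.00660 FPKM over the 8 libraries. Of the T-type pores, Cacna1h had 20.9, 15.8, 21.3 and 19.0 FPKM in TBI libraries 1 to 4, against 18.7, 16.9, 19.6 and 22.3 FPKM in sham libraries 1 to 4, with overlapping groups and a difference of -0.012 (95% interval -0.27 to 0.25, limma adjusted p = 0.992). Cacna1i averaged 16.1 FPKM and was not tested, as 2 of its values were marked as failed, and Cacna1g averaged 7.501 FPKM. Cacna1h exceeded Cacna1i in 6 of 8 libraries, so their order was not clear of the spread, whereas both exceeded Cacna1g with no overlap.

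The cytoplasmic beta subunits bring the calcium channel pore to the membrane. Cacnb3 had 82.7, 94.1, 83.4 and 88.6 FPKM in TBI libraries 1 to 4, against 77.6, 85.6, 91.6 and 90.5 FPKM in sham libraries 1 to 4, with sham 1 the lowest library and TBI 2 the highest, and a difference of 0.016 (95% interval -0.15 to 0.18, limma adjusted p = 0.979). It made up 53.5 ± 1.89% of the summed beta subunit FPKM in TBI and 52.3 ± 1.13% in sham (SD, n = 4 each). Cacnb1 followed with 41.8 ± 1.17 FPKM in TBI and 43.0 ± 2.36 FPKM in sham (SD, n = 4 each), clear of Cacnb3 above and of Cacnb2 below. Cacnb2 and Cacnb4, at 18.2 and 16.6 FPKM over the 8 libraries, overlapped each other.

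The alpha2delta subunits sit outside the membrane and set how many calcium channels reach the terminal, and the products of Cacna2d1 and Cacna2d2 are the targets of gabapentin. Cacna2d3 had 38.8, 30.8, 38.9 and 33.0 FPKM in TBI libraries 1 to 4, against 31.1, 54.0, 50.8 and 40.1 FPKM in sham libraries 1 to 4. Sham 2, sham 3 and sham 4 exceeded every TBI library and sham 1 exceeded only TBI 2, and the difference of -0.29 was the most negative among the 30 (95% interval -0.68 to 0.10, limma adjusted p = 0.891). Cacna2d2 had 5.89, 8.16, 6.89 and 6.66 FPKM in TBI libraries 1 to 4, against 6.77, 7.69, 5.94 and 5.63 FPKM in sham libraries 1 to 4, with overlapping groups and a difference of 0.079 (95% interval -0.19 to 0.35, limma adjusted p = 0.930). Cacna2d1 had 14.5, 45.2, 48.6 and 41.8 FPKM in TBI and 19.6, 39.2, 44.7 and 43.8 FPKM in sham libraries 1 to 4. TBI 1 and sham 1 were its low values, and its interval was the widest of the 30. In a further row of the same symbol TBI 1 was not low, with 24.5, 24.7, 23.6 and 18.0 FPKM in TBI and 20.8, 30.1, 33.0 and 23.0 FPKM in sham.

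The gamma family holds mostly TARPs, which bind AMPA receptors, carry them to the synapse and slow their closing. Cacng7, a TARP of the second type, had 93.2, 91.9, 89.5 and 90.9 FPKM in TBI libraries 1 to 4, against 87.0, 93.1, 93.4 and 89.3 FPKM in sham libraries 1 to 4, the smallest standard error of the 30, with a difference of 0.011 (95% interval -0.095 to 0.12, limma adjusted p = 0.978). Its sign turned under quantile normalization and sample weights. Cacng5, the other TARP of that type, had 4.44, 4.78, 3.58 and 2.88 FPKM in TBI libraries 1 to 4, against 2.62, 5.58, 3.80 and 2.37 FPKM in sham libraries 1 to 4. Sham 2 was its highest and sham 4 its lowest library, and the difference was 0.16 (95% interval -0.41 to 0.72, limma adjusted p = 0.931).

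Cacng3, Cacng4 and Cacng2, TARPs of the first type, lay between these levels. Cacng3 averaged 44.8 ± 5.36 FPKM in TBI and 44.7 ± 4.79 FPKM in sham (SD, n = 4 each), Cacng4 averaged 24.6 ± 2.29 FPKM in TBI and 25.1 ± 1.13 FPKM in sham (SD, n = 4 each), and Cacng2, the stargazin gene, averaged 19.2 ± 0.396 FPKM in TBI and 21.2 ± 2.95 FPKM in sham (SD, n = 4 each). Cacng4 exceeded Cacng2 in 8 of 8 libraries although their ranges overlapped. Cacng8, the fourth gene of that type, shares its row with a microRNA and was therefore not a member, and the joint row had 152.5, 78.3, 113 and 105 FPKM in TBI libraries 1 to 4, against 139.7, 114, 109 and 126 FPKM in sham libraries 1 to 4. Cacng6 and Cacng1, gamma subunits of skeletal muscle, averaged 0.734 and 0.0681 FPKM and were not tested.

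The 4 HCN genes formed a ladder with no overlap between neighbours, with Hcn2 at its top and Hcn4 at its foot. Hcn2 had 42.3, 37.6, 35.9 and 40.7 FPKM in TBI libraries 1 to 4, against 49.5, 43.3, 39.5 and 37.0 FPKM in sham libraries 1 to 4. Sham 1 and sham 2 were its highest libraries, the groups overlapped, and the difference was -0.11 (95% interval -0.33 to 0.11, limma adjusted p = 0.891). It made up 65.2 ± 3.07% of the summed HCN FPKM in TBI and 66.7 ± 3.13% in sham (SD, n = 4 each).

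Hcn3 had 4.98, 5.20, 4.02 and 4.77 FPKM in TBI libraries 1 to 4, against 5.34, 4.63, 4.03 and 3.70 FPKM in sham libraries 1 to 4, with overlapping groups and a difference of 0.10 (95% interval -0.18 to 0.37, limma adjusted p = 0.917). Hcn4, the pacemaker subunit of the sinoatrial node, was the lowest tested member in CA1, with 1.18, 2.25, 1.56 and 1.23 FPKM in TBI libraries 1 to 4, against 1.24, 2.04, 1.13 and 0.546 FPKM in sham libraries 1 to 4. TBI 2 and sham 2 were its highest libraries and sham 4 its lowest, and the difference of 0.28 was the most positive of the 30 (95% interval -0.34 to 0.90, limma adjusted p = 0.894). Leaving out 1 library moved it between 0.058 (no sham 4) and 0.49 (no sham 2), with 0.13 without TBI 2. Hcn4, at 1.398 FPKM, lay just above the limit of 1 FPKM for testing, and Cacng6, at 0.734 FPKM, lay just below it.

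**Figure D2:**
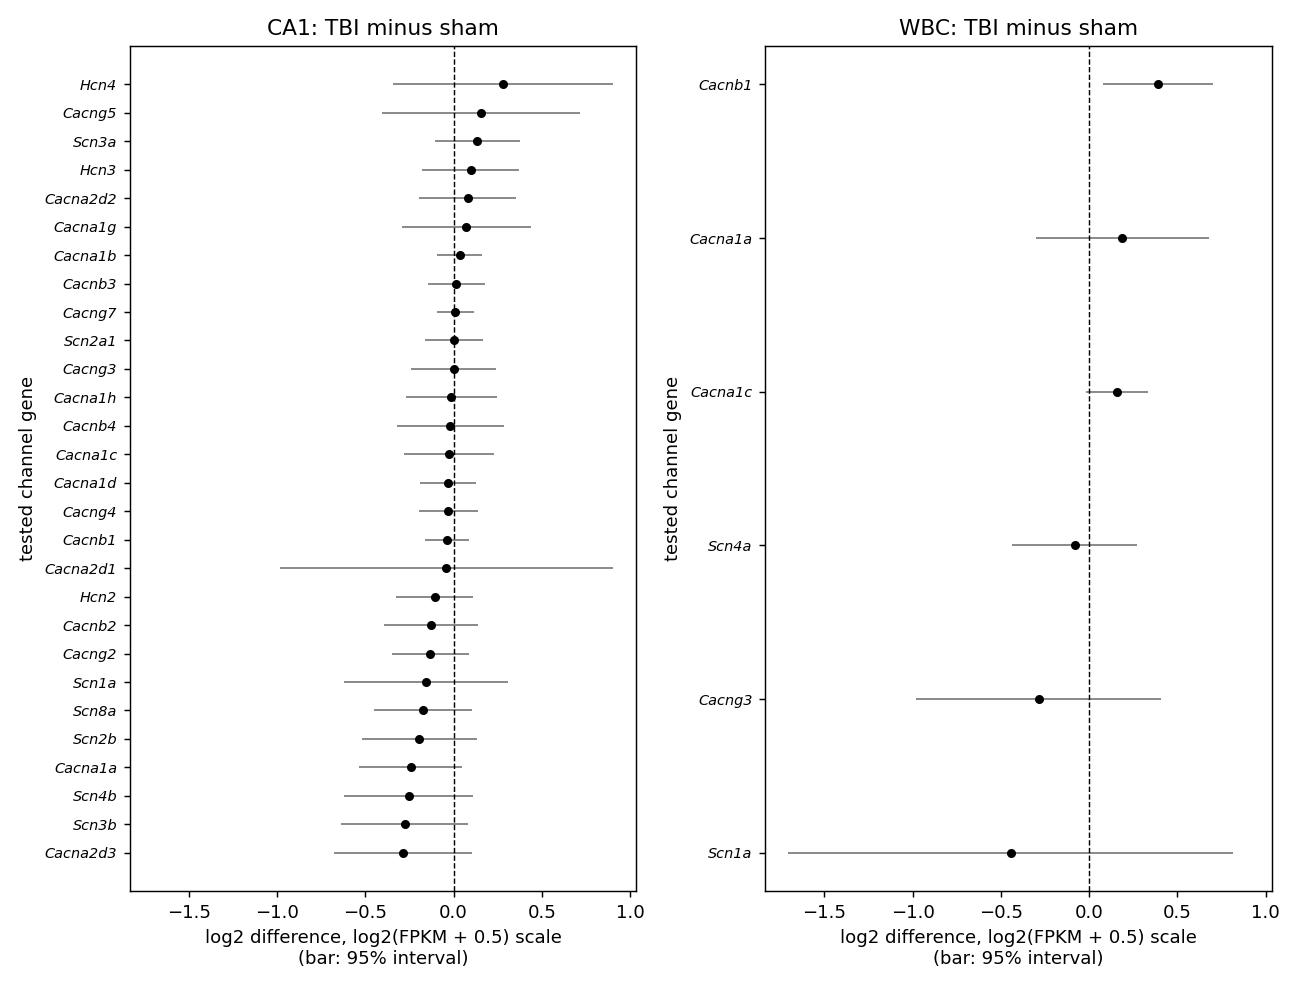
Difference between TBI and sham on the log2(FPKM + 0.5) scale for 28 of the 30 members tested in CA1 (left) and 6 of the 7 tested in WBC (right), with points for the estimates and bars for the 95% intervals. In CA1 every interval drawn includes 0, and in WBC that of Cacnb1 alone does not.

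The CA1 libraries of 1 group differed from one another in many members together. Set against its own sham mean, a member was higher in 16, 15, 12 and 6 of the 30 cases in TBI 1 to 4, and in 9, 26, 22 and 8 of the 30 cases in sham 1 to 4. The median deviation of the 30 was 0.0013, -0.032, -0.014 and -0.10 in TBI 1 to 4, against -0.074, 0.11, 0.083 and -0.081 in sham 1 to 4. In 8 of the 30 members (26.7%) sham 2 and sham 3 were the highest pair of libraries, compared with 13.5% of all rows tested, a description chosen after the values were seen. They were Scn1a, Scn8a, Scn2b, Scn3b, Scn4b, Cacnb2, Cacna2d3 and Cacng2. Sham 1 was the lowest library of 9 members (30.0%), compared with 19.4% of all rows.

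Leaving out sham 1 brought 6 members under an unadjusted p of 0.05, all lower in TBI, among 12.3% of all rows that did so. They were Scn2b (-0.32), Scn3b (-0.42), Scn8a (-0.27), Cacnb2 (-0.24), Cacna2d3 (-0.44) and Cacng2 (-0.23), and their limma adjusted p-values ran from 0.291 to 0.376, so that none passed. Sham 1 also had the lowest pyramidal marker sum of the 8 libraries, at 2329 FPKM, with 8 of 8 markers at a mean of 1 FPKM or more. The other sham libraries summed to 2978–3201 FPKM, above every TBI library (2396–2679 FPKM), so that without sham 1 the pyramidal sum, like these 6 members, was lower in TBI. Its endothelial sum was 120.7 FPKM, against 68.4–80.9 FPKM in TBI and 68.3–85.1 FPKM in the other sham libraries, with 5 of 5 markers at a mean of 1 FPKM or more. It had the highest interneuron sum, at 580.1 FPKM against 471–526 FPKM in TBI and 388–501 FPKM in the other sham libraries. The choroid plexus sum was 178–2730 FPKM in TBI and 18.0–1305 FPKM in sham, lowest in sham 1, with 5 of 6 markers at a mean of 1 FPKM or more and Otx2 at 0 in all 8 libraries. The part of these cell types in the channel values was not tested.

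**Figure D3:**
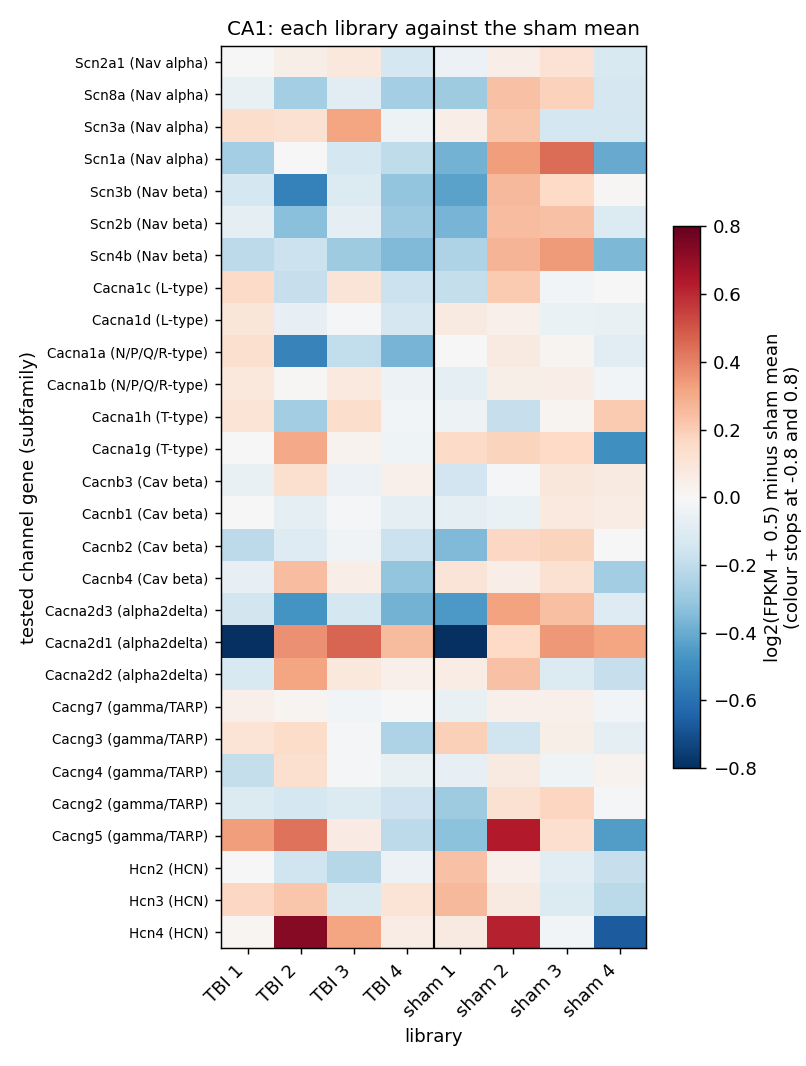
CA1 values of 28 of the 30 members tested (rows, by subfamily) in each library (columns, TBI 1 to 4 then sham 1 to 4), coloured by log2(FPKM + 0.5) minus the mean of the 4 sham libraries, red above and blue below. Sham 2 and sham 3 are red in 24 and 20 of the 28 rows drawn, while sham 1 and sham 4 are red in 9 and 8.

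Of 42 partner genes of these channels, listed for their known roles, 33 were tested in CA1, and 10 were higher and 23 lower in TBI, with 0 called and 5 at an unadjusted p under 0.05 (15.2%, against 5.14% of all rows). The smallest p belonged to Pex5l, which codes for the TRIP8b protein that escorts HCN channels in dendrites. It had 30.1, 36.1, 31.1 and 30.6 FPKM in TBI libraries 1 to 4, against 33.1, 50.9, 50.3 and 36.5 FPKM in sham libraries 1 to 4. Sham 2 and sham 3 again stood above the rest, and the difference was -0.39 (limma adjusted p = 0.891). Ppp3ca, a catalytic subunit of calcineurin, had 354, 274, 351 and 295 FPKM in TBI libraries 1 to 4, against 334, 428, 412 and 393 FPKM in sham libraries 1 to 4, and Gem, a small G protein that inhibits calcium channels, had 1.52, 2.37, 1.47 and 1.49 FPKM in TBI libraries 1 to 4, against 2.62, 2.04, 2.24 and 2.38 FPKM in sham libraries 1 to 4. Their differences were -0.30 and -0.37 (limma adjusted p = 0.891 for both), and their groups overlapped.

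In white blood cells most of the members were at or near 0. Of 41 members 7 averaged at least 1 FPKM, 28 lay between 0 and 1 FPKM, and 6 were listed at 0 in all 8 libraries, namely Cacng1, Cacng5, Scn7a, Scn11a, Cacna1f and Cacna2d4. All 7 could be tested, 4 were higher and 3 lower in TBI, and 0 were called, as was 0% of the 13413 rows tested. At an unadjusted p under 0.05 stood 1 of 7, against 20.3% of all rows, and 0 of 7 had groups that did not overlap, against 14.2%. The share lower in TBI was 42.9%, against 50.4% of all rows. The median difference was 0.16, against -0.003 over all rows, and it was 0.027 without TBI 1.

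**Figure D4:**
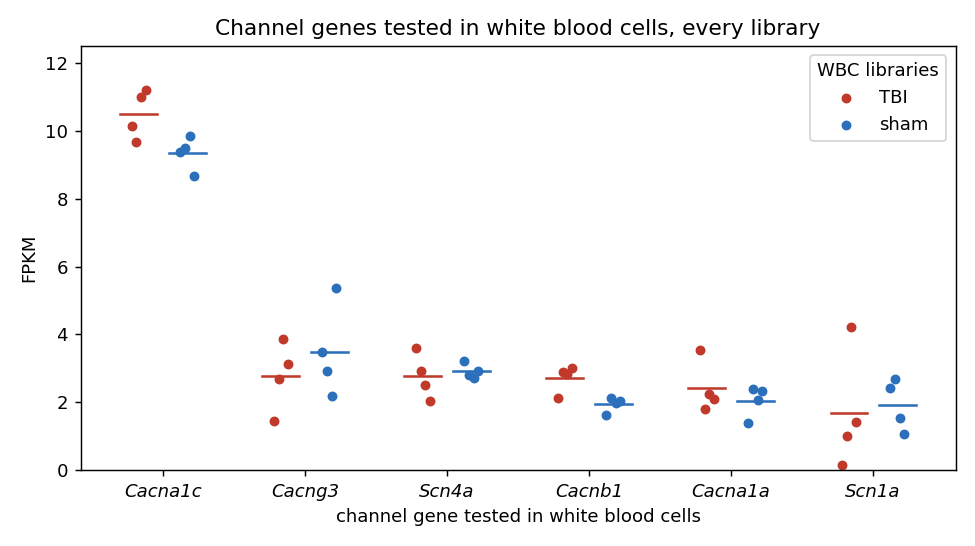
FPKM of 6 of the 7 members tested in WBC, ordered by mean, with red points for the 4 TBI and blue points for the 4 sham libraries and lines for the group means. Cacna1c is the highest at a mean of 9.93 FPKM, and the groups overlap in all 6.

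Cacna1c, the L-type pore, was the highest in WBC, with 10.1, 9.66, 10.99 and 11.2 FPKM in TBI libraries 1 to 4, against 9.39, 9.51, 9.85 and 8.67 FPKM in sham libraries 1 to 4. TBI 1, TBI 3 and TBI 4 exceeded every sham library and TBI 2 did not, and the difference was 0.16 (95% interval -0.019 to 0.34, limma adjusted p = 0.291). Cacnb1, the calcium channel beta subunit best known from skeletal muscle, had 2.12, 2.89, 2.84 and 2.999 FPKM in TBI libraries 1 to 4, against 1.62, 2.12, 1.98 and 2.05 FPKM in sham libraries 1 to 4. TBI 2, TBI 3 and TBI 4 exceeded every sham library, and TBI 1 lay just under sham 2. Its difference was 0.39 (95% interval 0.077 to 0.70, unadjusted p = 0.0205, limma adjusted p = 0.176), which did not pass.

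Cacna1a, the P/Q-type pore, had 3.56, 1.81, 2.26 and 2.09 FPKM in TBI libraries 1 to 4, against 1.39, 2.38, 2.07 and 2.32 FPKM in sham libraries 1 to 4, and TBI 1 alone stood above sham, with a difference of 0.19 (95% interval -0.30 to 0.68, limma adjusted p = 0.665). Without TBI 1 the difference was 0.021, and without sham 1 it was 0.053. Scn4a, the alpha subunit of skeletal muscle, was the only member at 1 FPKM or more in WBC and not in CA1. It had 3.61, 2.93, 2.53 and 2.04 FPKM in TBI libraries 1 to 4, against 3.22, 2.81, 2.72 and 2.92 FPKM in sham libraries 1 to 4, with a difference of -0.081 (95% interval -0.44 to 0.27, limma adjusted p = 0.815).

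Cacng3 and Scn1a varied widely between libraries of 1 group. Cacng3 had 1.44, 2.68, 3.87 and 3.13 FPKM in TBI libraries 1 to 4, against 3.49, 2.93, 2.19 and 5.36 FPKM in sham libraries 1 to 4, and its difference was -0.29 (95% interval -0.98 to 0.41, limma adjusted p = 0.641), which became -0.053 without TBI 1 and -0.082 without sham 4. Scn1a had 0.145, 0.996, 4.23 and 1.42 FPKM in TBI libraries 1 to 4, against 2.41, 2.69, 1.54 and 1.08 FPKM in sham libraries 1 to 4, with both its lowest and its highest value in TBI, and its difference was -0.45 (95% interval -1.70 to 0.81, limma adjusted p = 0.697). Its sign turned without TBI 1. Cacnb4, at 0.938 FPKM, lay just below the limit for testing.

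Red cell and platelet marker sums did not overlap between the WBC groups, though the red cell sums nearly met. The 6 of 6 erythroid markers summed to 4168–10091 FPKM in TBI and 10096–16079 FPKM in sham, and the 4 of 6 platelet markers in the table summed to 1808–5265 FPKM in TBI and 5637–7747 FPKM in sham, with none at 0. Taken singly, Alas2 overlapped (7947.8 FPKM in TBI 3, 6999.5 FPKM in sham 1), as did Epb42 (163.7 FPKM in TBI 2, 161.5 FPKM in sham 4). Gypc, Trim58, Ca2 and Slc4a1 did not overlap. The part of red cells and platelets in the channel values was not tested. Among the partner genes 16 were tested in WBC, 4 higher and 12 lower in TBI, with 0 called. At an unadjusted p under 0.05 stood 7 (43.75%, against 20.3% of all rows), and the groups of 5 did not overlap (31.25%, against 14.2%). Sptbn4, the spectrin that anchors sodium channels at the axon initial segment, had 1.73, 2.37, 2.16 and 2.19 FPKM in TBI libraries 1 to 4, against 4.39, 6.22, 3.39 and 4.45 FPKM in sham libraries 1 to 4. The difference was -0.95 (limma adjusted p = 0.127), with every TBI library below every sham library.

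Stim1, the sensor of calcium stores that opens the Orai channels of lymphocytes, had 50.8, 79.8, 86.3 and 88.7 FPKM in TBI libraries 1 to 4, against 118, 136, 98.9 and 104 FPKM in sham libraries 1 to 4, again with no overlap, and a difference of -0.60 (limma adjusted p = 0.155). Nedd4l, a ubiquitin ligase that removes sodium channels from the membrane, had 20.7, 50.9, 59.3 and 17.4 FPKM in TBI libraries 1 to 4, against 50.9, 89.8, 98.4 and 72.0 FPKM in sham libraries 1 to 4. Its groups overlapped, by TBI 2 and TBI 3 against sham 1, and the difference was -1.21 (limma adjusted p = 0.172).

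Across the tissues 6 members reached 1 FPKM in both tables, 26 in CA1 only, 1 in WBC only and 10 in neither. The share found in CA1 only was 60.5%, compared with 16.3% of all 16638 symbols, and the share found in both was 13.95%, compared with 45.8%. The tables were normalized separately, so levels were set side by side and not tested. The TBI difference in WBC minus that in CA1 was tested for the 6 members present in both, among 7570 genes, and 0 members passed, against 0.41% of those genes. Cacnb1 came nearest, at 0.43 (95% interval 0.16 to 0.70, limma adjusted p = 0.0989), and it passed with sample weights (0.49, limma adjusted p = 0.0225) and without WBC TBI 1 (0.52, limma adjusted p = 0.0319). The genes called numbered 31 of 7570 with all libraries at equal weight, 281 of 7570 with sample weights and 94 of 7572 without WBC TBI 1. An unadjusted p under 0.05 was reached by 2 of the 6 members, Cacnb1 among them, against 19.7% of the genes. Cacna1a stood at 0.43 (limma adjusted p = 0.350). Cacna1c, Cacng3 and Scn1a stood at 0.18, -0.29 and -0.29, with limma adjusted p-values of 0.491, 0.685 and 0.853.

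For 3 of these 6 symbols the row with the highest mean was not the same row in both tables. The tables give no positions, and a row is identified here by the next named row in its table. In WBC the Cacna1c row before Cacna2d4 averaged 9.93 FPKM and the row before Lrtm2 averaged 0.0208 FPKM. In CA1 the row before Lrtm2 was the higher, with 7.56 FPKM, and the row before Cacna2d4 averaged 4.46 FPKM. In that lower CA1 row the difference between TBI and sham was -0.10 (95% interval -0.31 to 0.11, limma adjusted p = 0.891). The difference of 0.18 between tissues used the higher row of each table. The WBC level of Cacna1c thus came from the row whose neighbour matches the lower CA1 row.

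The same held for a sodium channel and a TARP. The WBC row of Scn1a before Xirp2 averaged 1.81 FPKM, and the row before Scn9a, which in CA1 carried Scn1a alone with 4.63 FPKM, averaged 0.00949 FPKM in WBC. The WBC row of Cacng3 before Arhgap17 averaged 3.14 FPKM, and the row before Tnrc6a, which carried Cacng3 in CA1 with 44.7 FPKM, averaged 0.136 FPKM in WBC. For Cacna1c, Cacng3 and Scn1a the values of the tissues therefore describe different rows of 1 symbol.

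**Figure D5:**
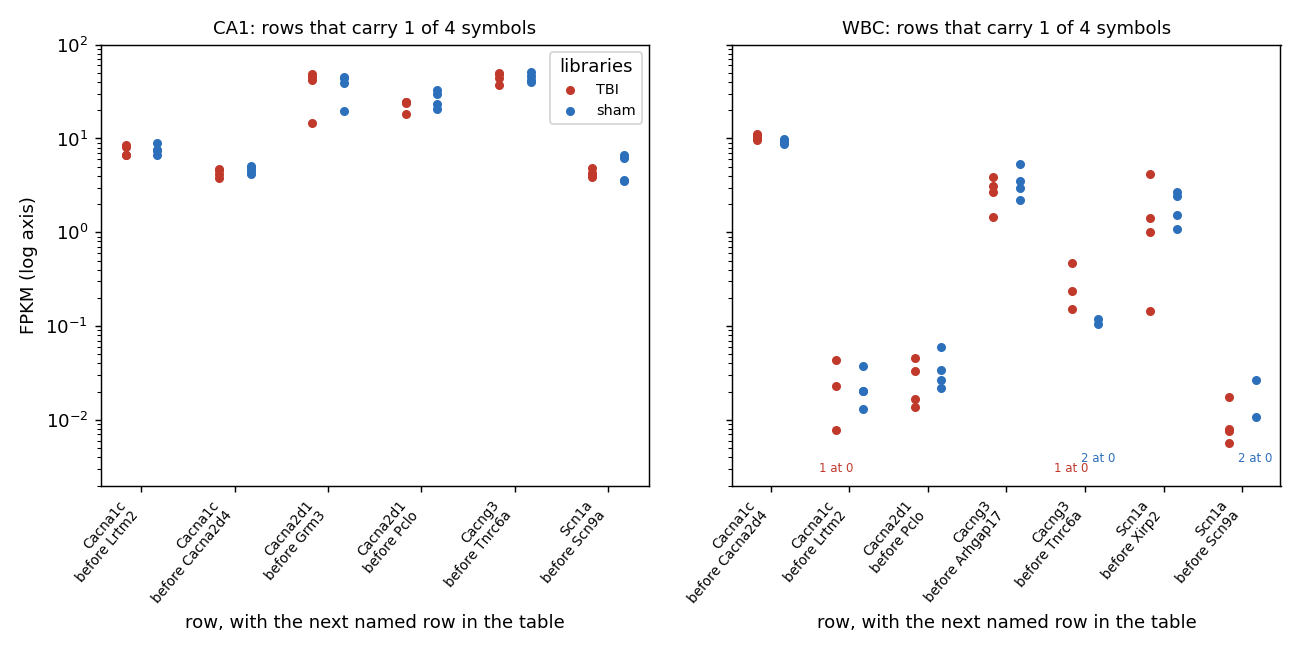
FPKM on a log axis for every row of Cacna1c, Cacna2d1, Cacng3 and Scn1a in CA1 (left) and WBC (right), with red points for TBI and blue points for sham libraries; each row is named by the next named row in its table, and values of 0 are counted in words at the foot. In WBC the Cacna1c row before Cacna2d4 lies near 10 FPKM and the row before Lrtm2 below 0.1 FPKM, while in CA1 the row before Lrtm2 is the higher.

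Below the limit for testing, 3 members had TBI libraries that all exceeded the sham libraries. In CA1 Scn10a had 0.0279, 0.0285, 0.0172 and 0.0208 FPKM in TBI libraries 1 to 4, against 0.0158, 0.00850, 0.00898 and 0.00965 FPKM in sham libraries 1 to 4, and Scn11a had 0.0323, 0.132, 0.0666 and 0.0971 FPKM in TBI libraries 1 to 4, against 0.0140, 0.0189, 0.00996 and 0.0214 FPKM in sham libraries 1 to 4, both sodium channels of nociceptive neurons, among 11 members under the limit and among 1.57% of 8331 rows between 0 and 1 FPKM. In WBC Cacng7 had 0.165, 0.288, 0.220 and 0.187 FPKM in TBI libraries 1 to 4 and was listed at 0 in all 4 sham libraries, among 28 members between 0 and 1 FPKM and among 3.77% of 7350 such rows. No fold is given against a group at 0. With every row above 0 in the fit, Scn11a had a limma adjusted p of 0.887 and Cacng7 of 0.153. In that wider set the difference between the tissues passed for Cacng7 (limma adjusted p = 0.0357), a value that rests on sham libraries listed at 0, while the CA1 row averaged 91.1 FPKM.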

How the data were processed

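RNA-seq of CA1 and WBC was deposited by the authors as FPKM, 1 table per tissue with 26031 and 24779 rows, each FPKM with a status. Per the submitters' processing notes, TopHat, TopHat2, Bowtie, Bowtie2, Cufflinks and Cuffdiff were used with the rat build rn5 (versions, annotation and normalization: not given in the sources used here). Per the labels' protocols, libraries came from about 1000 ng of poly-A selected, randomly primed RNA, and no strand marking is described, so reads of a gene and an antisense partner cannot be told apart. Depth is unknown, since FPKM holds no counts, and no counting interval is given.

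Groups were taken from the sample titles. TBI and sham were compared tissue by tissue on log2(FPKM + 0.5) with limma 3.58.1 in R 4.3.3 (lmFit, eBayes with trend, 2-sided), over rows with a mean of at least 1 FPKM and status OK in all 8 libraries, with Benjamini-Hochberg adjustment over all rows and a threshold of 0.05. A fold on this scale understates the change of low genes. The difference between tissues was the interaction term over the 7570 symbols tested in both. The scripts were tested on simulated data. There a log2 change of 0.3 passed the adjusted threshold in 14% of the changed rows for CA1 and 0% for WBC. A change of 1 passed in 84% for CA1 and 54% for WBC. Small differences would thus mostly go uncalled with 4 libraries per group. Figures and descriptions used Python 3.11.15, pandas 2.3.3, numpy 2.4.6 and matplotlib 3.10.9.

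The members and lists were chosen with earlier results of these data known. Values in every library are given, in CA1, for the highest tested member of each subfamily and the 6 members with the smallest p in each direction; in WBC for the 6 highest members and the 4 with the smallest p in each direction; for members tested in both; for the 3 partner genes with the smallest p per tissue; and, chosen after their values were seen, for Scn1a, Cacna2d1, Scn10a, Scn11a, WBC Cacng7 and the joint row of Cacng8. Some members that this rule names are not reported here, though all counts, medians and tests include them. Alternatives were the pseudocount (0.1 and 1), the filter (none, and a mean of 5 FPKM), median-ratio scaling, quantile normalization, limma with sample weights, with robust variances or without the trend, a replicate block, all statuses kept, single-symbol rows only, an adjusted p of 0.1, leaving out each library, and, added after the data were seen, the other row of Cacna1c in CA1. Start regions came from RefSeq (GRCr8); the other annotation of that build was not used, and no positions of rows are given.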

Additional observations from a re-analysis of the deposited data

Results flagged for a closer look

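Cacna1g, a T-type calcium channel pore, had a library standing apart in both CA1 groups. TBI 2 held 9.01 FPKM, above the other TBI libraries at 7.02 to 7.35 FPKM, and sham 4 held 4.99 FPKM, below the other sham libraries at 8.08 to 8.23 FPKM. The gap to the nearest library exceeded Dixon's 95% limit for 4 samples in each case, which chance passes in about 1 group in 20. Both groups of all 30 members tested in CA1 and all 7 tested in WBC were searched, and no other group passed. With that many groups searched, some would pass by chance.

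Below the limit for testing, the sodium channel genes Scn10a and Scn11a had their lowest CA1 TBI values, 0.0172 and 0.0323 FPKM, above every sham value, whose highest were 0.0158 and 0.0214 FPKM. In WBC the lowest TBI value of Cacng7 was 0.165 FPKM, and the sham libraries were listed at 0. The deposited status marked none of these values as failed.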

How the results depend on the processing

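No member was called in CA1 or WBC under any of the alternatives run, the replicate block included. In CA1 1 row passed over all rows, 3 without the trend, with sample weights or at an adjusted p of 0.1, 2 with single-symbol rows only, and 1 to 2 without 1 library. In WBC 0 rows passed (2727 at an unadjusted p under 0.05), 2 with rows of every status, 1 at an adjusted p of 0.1 and 0 to 4 without 1 library. The difference between tissues passed for 0 members, and for 1 without the filter (Cacng7), with sample weights, at an adjusted p of 0.1 (both Cacnb1) and in 0 to 1 without 1 library, where it was Cacnb1 at 0.52 without WBC TBI 1. Over all genes the calls between tissues were 31 of 7570, against 13 of 12364 without the filter, 20 of 5020 at a mean of 5 FPKM, 281 of 7570 with sample weights, 329 of 7570 at an adjusted p of 0.1 and 6 to 222 without 1 library. Without 1 library the member median ran between -0.055 and -0.0086 for CA1 and between 0.027 (no TBI 1) and 0.20 for WBC.

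Of 655 alternative values over 31 gene results, 629 kept direction and side of the threshold, 24 turned sign and 2 came to pass, both for Cacnb1 between tissues (0.49 with sample weights; 0.36 to 0.52 without 1 library). With sample weights, in CA1 Cacng7 became -0.018, Cacna1h 0.039, Cacng5 -0.032, Scn2a1 -0.018 and Cacnb3 -0.029, WBC Scn1a became 0.077 and Scn1a between tissues 0.49, and Cacng7 became -0.0035 under quantile normalization. Without 1 library the sign also turned in ranges of -0.0089 to 0.025 for Cacng7, -0.074 to 0.077 for Cacna1h, -0.041 to 0.047 for Scn2a1, -0.088 to 0.045 for Cacna1c and -0.034 to 0.045 for Cacnb3 in CA1, of -0.20 to 0.033 for Scn4a and -0.93 to 0.027 for Scn1a in WBC, and of -0.78 to 0.18 for Scn1a between tissues. Leaving out 1 library also moved, with no change of sign, Cacng5 between 0.0069 and 0.37 and Hcn3 between 0.024 and 0.18 in CA1. The cause was not tested.

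The samples were not paired by replicate number, as the labels do not say what the numbers mark. In CA1 same-numbered TBI and sham libraries correlated at 0.066 to 0.195, and the other pairs at -0.163 to 0.088. In WBC the same-numbered pairs correlated at -0.051 to 0.173 and the other pairs at -0.25 to 0.134. TBI 1, TBI 2 and TBI 4 correlated best with the sham library of their own number in CA1, as TBI 1 and TBI 2 did in WBC. These values do not settle whether equal numbers mark a pair. With the replicate block, the count called was 1 row in CA1 and 0 in WBC, with 0 members in each. Between tissues, CA1 and WBC libraries of the same treatment and number correlated at 0.048 to 0.202, and each CA1 library correlated best with the WBC library of its own number, a hint from the data and not from the labels. With these numbers as a replicate block, 126 of 7570 genes were called between tissues, against 31 without it, and 0 members, with Cacnb1 at a limma adjusted p of 0.0657. Unknown depth limits values near 0 most.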
